A study of Rattus norvegicus with 24 samples.

Results

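The genes described here make cholesterol or sense it. The list holds Hmgcs1, Idi1, Fdps, Fdft1, Sqle, Cyp51 and Dhcr7, which encode enzymes of the pathway, and Insig1, which encodes a sterol sensor. Members were taken as every probe set that the platform annotation pairs with exactly 1 symbol and that symbol is on the list. In all, 7 of the 8 listed genes were found, with 10 probe sets, among 14217 genes and 31042 probe sets tested. Hmgcs1 was not analysed here. Levels were measured on 24 Affymetrix rat arrays, 6 in each of 4 groups, in untreated Brown Norway rats. The groups were round spermatids of aged (18 months) rats, round spermatids of young (4 months) rats, pachytene spermatocytes of aged rats and pachytene spermatocytes of young rats. Both fractions were separated by sedimentation after enzyme digestion of the testis, at a stated purity above 83%, so each array also holds RNA of other cells. The labels do not say whether the samples of a group are separate animals, so a p-value here measures the spread between these samples, which may be technical.

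Cholesterol synthesis runs from acetyl-CoA through mevalonate to farnesyl diphosphate, then through squalene and lanosterol to cholesterol. Its genes are switched on together when cells lack sterol: the transcription factor SREBP is then released from the endoplasmic reticulum, where Insig proteins otherwise hold it with its escort, Scap. Germ cells are known to depart from this pattern. In rat and mouse testis Cyp51, the lanosterol demethylase, is known to be abundant in postmeiotic cells and to make a sterol intermediate studied for its effect on meiosis, and the germ cell factor CREM is known to act on the Cyp51 promoter.

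The promoters of 5 of the 7 members are in the RefSeq table (assembly GRCr8), each with 250 bases before the start of the gene and 50 after it. The 4 below belong to the members whose levels moved most, or whose probe sets disagreed, and are printed 5′ to 3′ on the strand of the gene. Capitals mark the CCAAT box (CCAAT, or ATTGG on the other strand) and TGACG or CGTCA, the core of the element that CREM binds. The Cyp51 window is chr4:30991443-30991742 on the plus strand, the Insig1 window is chr4:8057720-8058019 on the minus strand, the Fdps window is chr2:176804767-176805066 on the minus strand, and the Idi1 window is chr17:66547475-66547774 on the minus strand.
Cyp51: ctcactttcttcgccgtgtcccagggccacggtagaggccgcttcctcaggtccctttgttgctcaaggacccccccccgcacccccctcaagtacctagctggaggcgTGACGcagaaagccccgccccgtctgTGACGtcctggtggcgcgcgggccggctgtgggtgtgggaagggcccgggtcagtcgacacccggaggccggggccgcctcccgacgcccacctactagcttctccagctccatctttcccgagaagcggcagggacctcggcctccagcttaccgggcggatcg
Insig1: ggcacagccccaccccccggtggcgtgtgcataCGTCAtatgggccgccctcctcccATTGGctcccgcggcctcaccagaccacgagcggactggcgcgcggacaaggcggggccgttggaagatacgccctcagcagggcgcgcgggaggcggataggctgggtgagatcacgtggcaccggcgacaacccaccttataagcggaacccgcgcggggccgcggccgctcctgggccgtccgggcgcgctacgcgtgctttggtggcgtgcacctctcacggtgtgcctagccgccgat
Fdps: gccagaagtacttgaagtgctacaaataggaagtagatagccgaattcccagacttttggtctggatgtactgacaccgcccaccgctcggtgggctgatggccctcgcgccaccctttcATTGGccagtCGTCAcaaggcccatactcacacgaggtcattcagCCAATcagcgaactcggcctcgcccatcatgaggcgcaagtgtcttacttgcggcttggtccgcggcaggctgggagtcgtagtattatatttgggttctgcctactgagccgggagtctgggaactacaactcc
Idi1: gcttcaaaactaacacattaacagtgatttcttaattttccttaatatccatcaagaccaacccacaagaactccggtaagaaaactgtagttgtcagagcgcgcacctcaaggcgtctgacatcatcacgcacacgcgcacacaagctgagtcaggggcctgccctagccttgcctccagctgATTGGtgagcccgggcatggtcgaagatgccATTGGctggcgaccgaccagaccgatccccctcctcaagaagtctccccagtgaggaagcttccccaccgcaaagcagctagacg

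The Cyp51 window holds TGACG at positions -141 and -115 from the start and no CCAAT box. The Insig1 window holds a CCAAT box at -193 and the TGACG core at -217, both on the opposite strand. Fdps has CCAAT boxes at -130 and -85 and the TGACG core at -120, and Idi1 has CCAAT boxes at -66 and -35 and no TGACG core. The Dhcr7 promoter holds neither. A CCAAT box was found on either strand in 3 of 5 member promoters and in 10 of the 11 promoters of other enzymes of the pathway that are in the table, against 37.5% of 33469 promoters of that length. The TGACG core was in 3 of 5 and 6 of 11, against 21.2%. The full palindrome TGACGTCA was in 0 of 5 and 0 of 11 (1.83% of all promoters), and the sterol regulatory element, searched as TCACNCCAC on both strands, was in 0 of 5 and 0 of 11 (1.12%). No motif overlapped another in the 4 printed windows. A match is a description of the letters, and a missing match concerns only these windows and letters.

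Several facts of the whole series touch the values below. Deposited signals are on a log2 scale, and low signals differ between the fractions: 3 control probe sets for a bacterial transcript not added to the samples averaged 6.90 and 6.77 in aged and young round spermatids, against 4.19 and 4.38 in aged and young pachytene spermatocytes. For comparisons of the fractions a constant of 94.3 intensity units was therefore added to the pachytene values so that these controls matched, and all 24 arrays were quantile normalized together (the joint scale). Ages were compared within a fraction after quantile normalization of its 12 arrays. Of the markers of each cell type, all 7 of round spermatids and all 10 of late spermatids were higher in the round spermatid arrays, and 8 of 9 of pachytene cells were lower (1 was higher). Sertoli cell markers were lower in round spermatids for 11 of 13, while 8 of 8 macrophage markers and 5 of 6 peritubular markers were higher. Young pachytene arrays 1, 10 and 11 stood apart from the other pachytene arrays on the first principal component (-86.3, -47.1 and -44.0, against -7.38 to 3.78 in the other young and 16.2 to 39.6 in the aged arrays). Young round spermatid array 10 stood apart in its fraction at -40.7, while young round spermatid arrays 1 and 11 were at -9.81 and -18.7, beside -13.9 for array 13. Counts over gene lists that young arrays 1, 10 and 11 move are given with and without them, as are most member results that rest on them. Leaving them out removed these numbers from both fractions, so that only young arrays 2, 3 and 13 were left in each. In these fractions, fewer cells of a type and less RNA per cell cannot be told apart.

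The fractions were compared first, to ask which steps of the pathway differ between meiotic and haploid germ cells. All 7 member genes differed, with 5 higher in round spermatids (Cyp51, Sqle, Fdps, Fdft1 and Idi1) and 2 lower (Insig1 and Dhcr7). Their median difference was 0.66 on the log2 scale, against 0.05 over all 14217 genes. Of all genes, 88.3% passed the same threshold (limma, adjusted p below 0.05 over all probe sets), 49.2% higher and 39.1% lower, so a pass by itself is what most genes did. The counts were again 5 higher and 2 lower on median-centred values, on the deposited scale and after centring each array on its spiked hybridization controls (control centring).

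Cyp51 had the largest difference of the members. Its brighter probe set, 1367979_s_at, lay between 11.15 and 11.54 (median 11.43) in aged round spermatids and between 11.58 and 11.82 (median 11.64) in young round spermatids on the joint log2 scale. In pachytene spermatocytes it lay between 8.93 and 9.53 (median 9.11) in aged rats and between 9.38 and 10.94 (median 9.97) in young rats. Every round spermatid array was above every pachytene array, and the difference was 1.93 ± 0.14 (SE), or 3.81-fold higher (limma, adjusted p = 5.81e-12). The second Cyp51 probe set, 1387020_at, was also higher in every round spermatid array, by 1.22 ± 0.04 (adjusted p = 6.28e-19).

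Sqle encodes squalene epoxidase, which adds oxygen to squalene ahead of ring closure. Its probe set 1387017_at lay between 11.35 and 11.53 (median 11.41) in aged and between 11.39 and 11.58 (median 11.50) in young round spermatids. It lay between 9.84 and 10.07 (median 9.90) in aged and between 9.80 and 10.77 (median 10.14) in young pachytene spermatocytes. The fractions did not overlap, and Sqle was 2.62-fold higher in round spermatids (1.39 ± 0.08 log2, SE, limma, adjusted p = 2.14e-13).

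Fdps encodes farnesyl diphosphate synthase, whose product feeds squalene as well as the lipid tails of proteins. It lay between 12.92 and 13.31 (median 13.11) in aged round spermatids and between 13.10 and 13.63 (median 13.43) in young round spermatids. In pachytene spermatocytes it lay between 11.65 and 11.92 (median 11.78) in aged rats and between 12.04 and 13.17 (median 12.37) in young rats. The fractions overlapped only through young pachytene array 1, at 13.17. Fdps was 2.20-fold higher in round spermatids (1.14 ± 0.10 log2, SE, limma, adjusted p = 4.81e-10).

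Fdft1, squalene synthase, and Idi1, which isomerizes the isoprene unit, gave opposite answers by probe set. The brighter Fdft1 probe set, 1367839_at, was 0.66 ± 0.06 higher in round spermatids (limma, adjusted p = 1.29e-09), with no overlap. Its other probe set, 1389906_at, was 0.33 ± 0.07 lower (adjusted p = 0.000191), with overlap, and in young rats alone it was lower by 0.19 without passing the test (-0.19, adjusted p = 0.194). For Idi1, 1368878_at was 0.57 ± 0.04 higher (adjusted p = 4.61e-13, no overlap), while 1388872_at was 0.54 ± 0.09 lower (adjusted p = 8.13e-06, overlap). Averaged over its 2 probe sets, Idi1 differed by 0.01 between the fractions (adjusted p = 0.834). The direction for these genes therefore depended on the probe set, and the probe positions were not examined.

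The 2 members that were lower in round spermatids were Insig1, the sterol sensor, and the enzyme Dhcr7. Insig1 lay between 9.72 and 10.06 (median 9.80) in aged round spermatids and between 9.24 and 9.64 (median 9.43) in young round spermatids. In pachytene spermatocytes it lay between 11.44 and 11.60 (median 11.55) in aged rats and between 10.70 and 11.61 (median 11.38) in young rats. Every round spermatid array was below every pachytene array. Insig1 was 3.39-fold lower in round spermatids (-1.76 ± 0.08 log2, SE, limma, adjusted p = 1.26e-15). Dhcr7, the reductase of the last step, was 1.21-fold lower (-0.28 ± 0.04, adjusted p = 2.07e-06), between 8.21 and 8.38 in aged and 8.17 and 8.52 in young round spermatids, against 8.52 to 8.66 in aged and 8.48 to 8.78 in young pachytene spermatocytes.

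**Figure D1:**
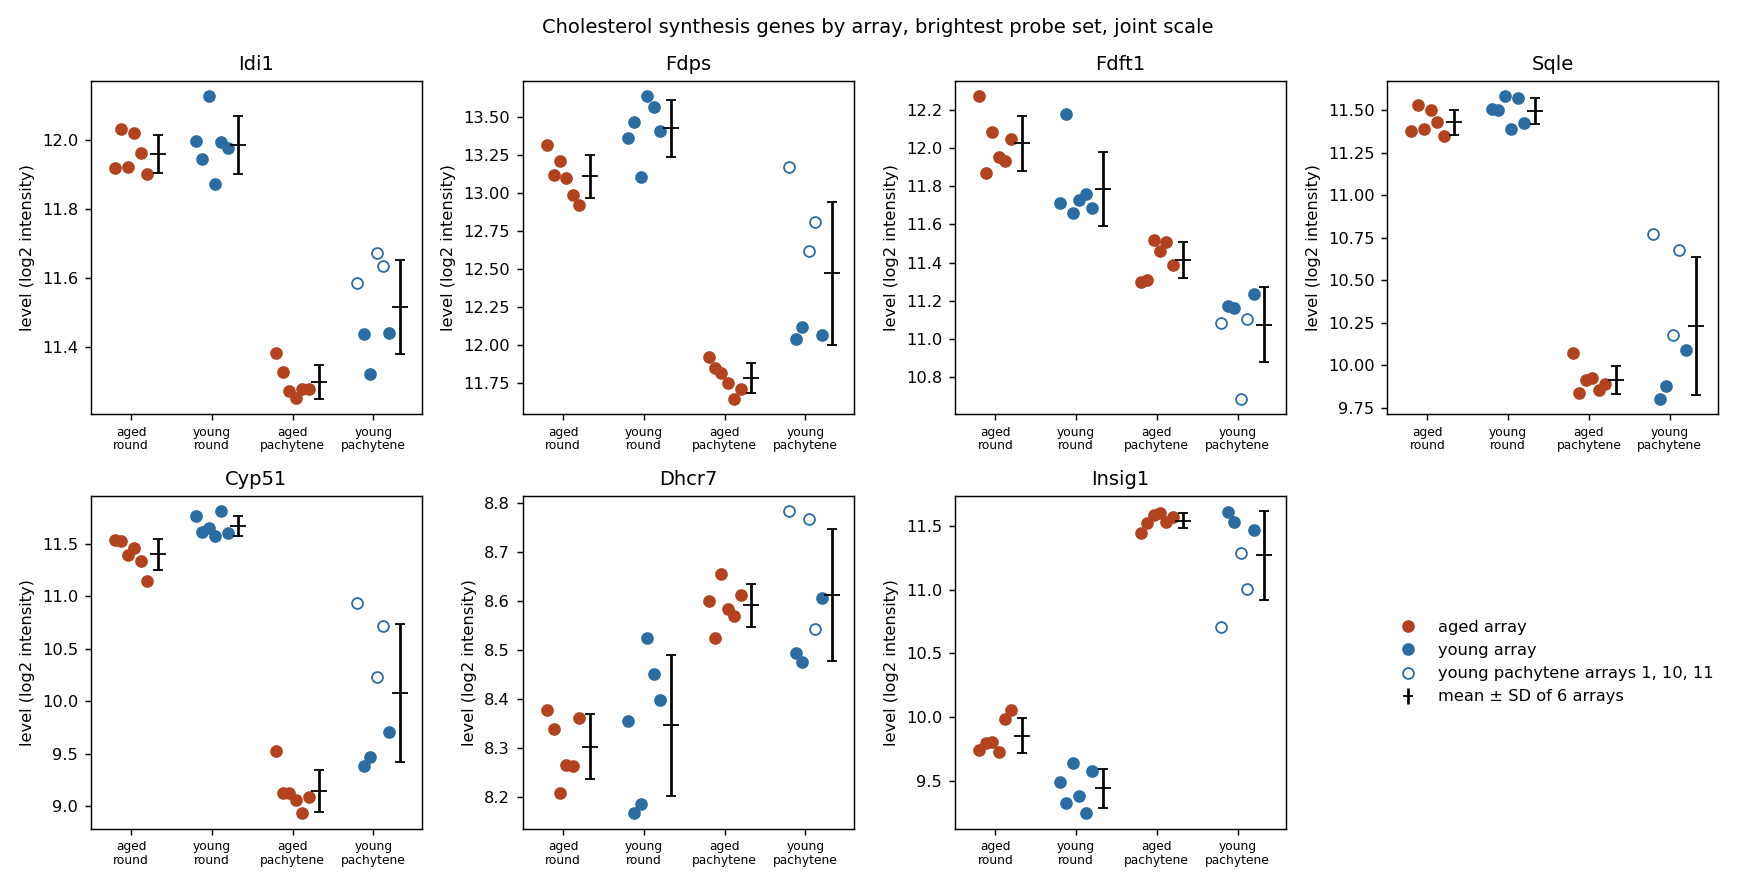
Level of each member gene on the 24 arrays (log2 intensity on the joint scale, brightest probe set), with aged and young round spermatids and then aged and young pachytene spermatocytes from left to right. Points are arrays, black marks are the mean ± SD of 6 arrays, and open points are young pachytene arrays 1, 10 and 11. Cyp51 and Sqle sit higher and Insig1 lower in all round spermatid arrays. The open points lie nearest to the round spermatids for Cyp51, Fdps, Sqle, Idi1 and Insig1, and farthest from them for Fdft1.

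For each member the 4 group means could be put in order. Cyp51 averaged 11.40 ± 0.15 in aged and 11.67 ± 0.10 in young round spermatids, and 9.14 ± 0.20 in aged and 10.08 ± 0.66 in young pachytene spermatocytes (SD, n = 6 each), so the young group was the higher within each fraction. Fdps had the same order of groups, at 13.11 ± 0.14 in aged and 13.42 ± 0.19 in young round spermatids, and 11.78 ± 0.10 in aged and 12.47 ± 0.47 in young pachytene spermatocytes. For Sqle and Idi1 the round spermatid groups came first but did not differ from each other beyond their spread (Sqle at 11.43 ± 0.07 in aged and 11.50 ± 0.08 in young, Idi1 at 11.96 ± 0.06 in aged and 11.99 ± 0.08 in young). Fdft1 had the aged group on top within each fraction, at 12.03 ± 0.14 and 11.79 ± 0.19 in aged and young round spermatids and 11.41 ± 0.10 and 11.08 ± 0.20 in aged and young pachytene spermatocytes. Insig1 was highest in aged pachytene spermatocytes (11.54 ± 0.06) and lowest in young round spermatids (9.44 ± 0.15). Dhcr7 differed between ages by less than its spread in both fractions.

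The other enzymes of the pathway were split between fractions. Of 12 measured, 5 were higher and 5 lower in round spermatids, with a median of -0.01 log2. Without young arrays 1, 10 and 11, 4 were higher and 5 lower. On the deposited scale and with control centring the list gave 1 higher and 9 lower, and on median-centred values 2 higher and 9 lower. Pmvk, which phosphorylates phosphomevalonate, was 1.16 ± 0.06 higher in round spermatids (limma, adjusted p = 6.42e-15), and 0.58 to 0.71 higher in these other scalings. The other 4 called higher depended on the scaling: Mvk (mevalonate kinase, 0.14), Tm7sf2 and Lbr (the sterol reductases, 0.11 and 0.37) were below 0 in all 3 other scalings, and Lss (lanosterol synthase, 0.32) was below 0 in 2 of them. Acat2, which joins acetyl-CoA units, was 0.61 ± 0.04 lower, Mvd (mevalonate diphosphate decarboxylase) 0.43 lower, Hsd17b7 (a sterol ketone reductase) 0.35 lower, Ebp (a sterol isomerase) 0.31 lower and Sc5d (a sterol desaturase) 0.21 lower. The Sc5d call held only without young array 1, 2 or 3 or aged array 10 and was lost without each of the other 8 (adjusted p up to 0.0915), and the Tm7sf2 call was lost without young array 1 or 10 (adjusted p up to 0.0556). Msmo1, which oxidizes a sterol methyl group, and Nsdhl, which helps remove it, did not pass the test (-0.02, adjusted p = 0.794 and 0.00, adjusted p = 0.969), and Msmo1 was lower in the 3 other scalings (-0.39 to -0.53). Other probe sets of Lss (-0.61) and of Sc5d (-1.12 and -1.26) were lower, and those of Mvk were split (-0.32 and 0.43).

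**Figure D2:**
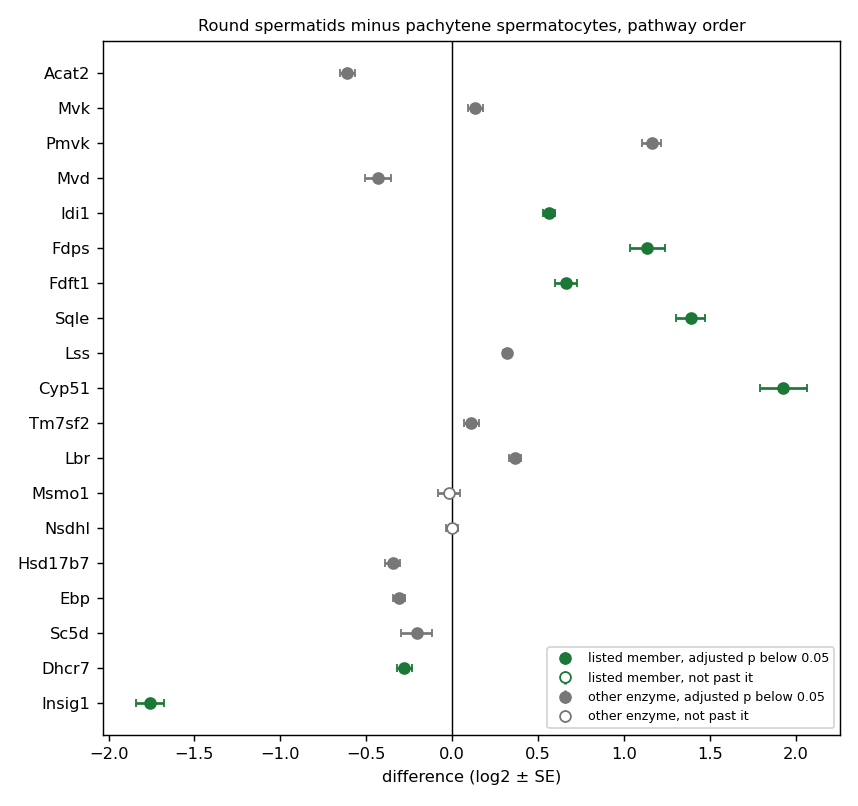
Difference between round spermatids and pachytene spermatocytes (log2 ± SE, brightest probe set) for 19 genes from the entry of the pathway at the top to cholesterol, with Insig1 at the bottom. Green marks are the listed members and grey marks the other enzymes, filled where the adjusted p was below 0.05. Idi1, Fdps, Fdft1, Sqle and Cyp51 all lie to the right of 0, with Cyp51 at 1.93, and Insig1 is the farthest to the left at -1.76.

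The sensing machinery was mostly lower in round spermatids, with 2 of 11 genes higher and 7 lower (1 higher and 10 lower in the 3 other scalings). Over all genes 49.2% were higher and 39.1% lower. Without young arrays 1, 10 and 11 the list gave 3 higher and 7 lower. Erlin2 and Erlin1, endoplasmic reticulum proteins that bind the sensor complex, were lower by 1.48 and 1.35 on the log2 scale in round spermatids (-1.48 ± 0.09, adjusted p = 1.3e-13, and -1.35 ± 0.09, adjusted p = 1.71e-12, limma). Mbtps2, a protease that releases SREBP, differed by -0.60 and Sp1, a general promoter factor, by -0.82 by its brightest probe set. The other Sp1 probe sets overlapped between the fractions. Scap was lower by its brighter probe set (-0.56 ± 0.05) and higher by the other (0.12). Srebf2, the factor most tied to cholesterol genes, did not pass the test (0.00, adjusted p = 0.928), although it was lower in 3 other scalings (-0.36 to -0.49). Srebf1, tied to fatty acid genes, was higher by 0.20 and below 0 in those same scalings. Insig2, the relative of Insig1, did not pass (0.15, adjusted p = 0.229), and its other probe set was 1.47 ± 0.05 lower. Among uptake, transport, storage and export genes 3 of 12 were higher and 7 lower (1 higher and 9 or 10 lower in the other scalings). Without young arrays 1, 10 and 11 that list gave 3 higher and 8 lower. Levels were lower for Stard4 (-0.49), a sterol carrier, Lipa (-0.91), which frees cholesterol in lysosomes, and Scarb1 (-0.54), a lipoprotein receptor. Nr1h2, a sterol receptor, was lower by its brighter probe set (-0.40). Its other probe set was higher in every round spermatid array than in every pachytene array. Of the genes that use the isoprene units for other ends, 4 of 9 were higher and 4 lower. The counts were 1 higher and 6 lower in the other scalings, and 5 higher and 4 lower without young arrays 1, 10 and 11. Pggt1b, Coq2 and Pdss2 differed by -0.57, -0.73 and -0.75, and Dhdds by 0.51, which was -0.02 on the deposited scale.

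Age was compared next in pachytene spermatocytes, since the series sets young against aged rats. Of the 7 member genes 1 was higher in aged rats (Fdft1), 3 were lower (Cyp51, Fdps and Idi1) and 3 did not pass the test. The median difference was -0.19 log2, against 0.05 over all genes. Of all genes, 44.6% passed (25.5% higher, 19.0% lower), so 4 called genes of 7 is not far from the share of all genes. The split depended on the scaling: 2 were higher and 1 lower on median-centred values, 0 higher and 5 lower on the deposited scale, and 1 higher and 3 lower with control centring. Counts on the deposited scale, here and for the lists below, are to be read against 61.7% of all probe sets passing (median -0.24). The median of all probe sets was 0.13 on median-centred values and -0.12 with control centring. Without young arrays 1, 10 and 11, 1 member was higher and 2 were lower. Of all 14217 genes 2475 were then higher and 1815 lower, and the list counts below without these arrays are to be read against those.

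Cyp51 showed the largest age difference of the members in this fraction. It lay between 8.97 and 9.67 (median 9.19) in aged pachytene spermatocytes, against 9.51 to 11.05 (median 10.13) in young ones, on the scale normalized within the fraction. Young arrays 1, 10 and 11 had 11.05, 10.39 and 10.85, the other young arrays 9.51 to 9.88, and aged array 2, the highest of its group, had 9.67, so the ages overlapped. Cyp51 was 1.98-fold lower in aged rats (-0.99 ± 0.25, SE, limma, adjusted p = 0.00918). Without young arrays 1, 10 and 11 it was still lower, by less (-0.45, adjusted p = 0.0292). The second probe set was -0.20 ± 0.09 and did not pass (adjusted p = 0.0905).

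Fdps lay between 11.69 and 11.92 (median 11.80) in aged and between 12.03 and 13.09 (median 12.32) in young pachytene spermatocytes, with every aged array below every young array. It was 1.54-fold lower in aged rats (-0.62 ± 0.16, adjusted p = 0.0109, limma). Without the 3 young arrays the difference was -0.26 (adjusted p = 0.00807), and on median-centred values it was -0.31 and did not pass (adjusted p = 0.0825). Idi1 lay between 11.33 and 11.45 in aged and between 11.39 and 11.71 in young pachytene spermatocytes by its brighter probe set, a difference of -0.19 ± 0.06 (adjusted p = 0.0208). That call did not hold: the difference was -0.09 without the 3 young arrays (adjusted p = 0.2), 0.08 on median-centred values (adjusted p = 0.353), and the other Idi1 probe set went the other way (0.24 ± 0.10, adjusted p = 0.0683).

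Fdft1 was the member that was higher with age. Its 2 probe sets lay between 11.38 and 11.57 and between 10.57 and 10.76 in aged pachytene spermatocytes, against 10.82 to 11.32 and 9.61 to 10.43 in young ones. Every aged array was above every young array for both. The differences were 0.30 ± 0.08 (adjusted p = 0.011) and 0.53 ± 0.13 (adjusted p = 0.00734), and the brighter probe set kept 0.20 without young arrays 1, 10 and 11 (adjusted p = 0.0264). On the deposited scale it was 0.19 and did not pass (adjusted p = 0.0777). The second probe set was lowest in young arrays 1, 10 and 11, while the other young arrays lay between 10.35 and 10.43, nearer to the aged ones. Part of its difference of 0.53 therefore rests on those 3 young arrays, and its value without them is not given here.

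Sqle, Insig1 and Dhcr7 did not pass in pachytene spermatocytes. Sqle lay between 10.01 and 10.24 in aged and between 9.97 and 10.90 in young arrays (-0.30 ± 0.14, adjusted p = 0.115). It passed without young array 2 (-0.39, adjusted p = 0.0387) and on the deposited scale (-0.50, adjusted p = 0.015). Insig1 lay between 11.50 and 11.65 in aged and between 10.83 and 11.65 in young arrays (0.25 ± 0.12, adjusted p = 0.12), and passed on median-centred values (0.53, adjusted p = 0.0147). Dhcr7 was at -0.03 ± 0.08 (adjusted p = 0.823), and was lower with control centring (-0.33, adjusted p = 0.0251) and on the deposited scale (-0.44, adjusted p = 0.00764). Without young arrays 1, 10 and 11, Sqle was at -0.01 and Insig1 at 0.01.

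Markers of other cells moved with these values. In pachytene arrays all 10 late spermatid markers were lower in aged rats, as were 11 of 13 Sertoli markers, 3 of 7 round spermatid markers and 4 of 7 spermatogonia markers. Those counts were 7, 9, 3 and 3 without young arrays 1, 10 and 11. The mean log2 level of the late spermatid list was 12.99 to 13.57 in aged arrays, against 14.55, 14.21 and 14.22 in young arrays 1, 10 and 11 and 13.46 to 13.64 in the other young arrays. The round spermatid list was at 11.32 to 11.69 in aged arrays, against 12.60, 11.97 and 12.37 in those 3 and 11.50 to 11.75 in the other young ones. The summed intensity of the Sertoli list was 20304 to 28177 in aged arrays and 42486 to 71643 in young arrays, and that of the late spermatid list 103756 to 146799 in aged arrays and 138458 to 252272 in young arrays. The young arrays with more spermatid marker signal were those with more Cyp51, Fdps, Sqle and Idi1, and less Insig1, by the brightest probe sets. Fdft1, also higher in round spermatids by its brighter probe set, went the other way. It was at 11.18, 10.82 and 11.20 in young arrays 1, 10 and 11, against 11.25 to 11.32 in the other young arrays. The part of these cells in the age differences was not tested.

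**Figure D3:**
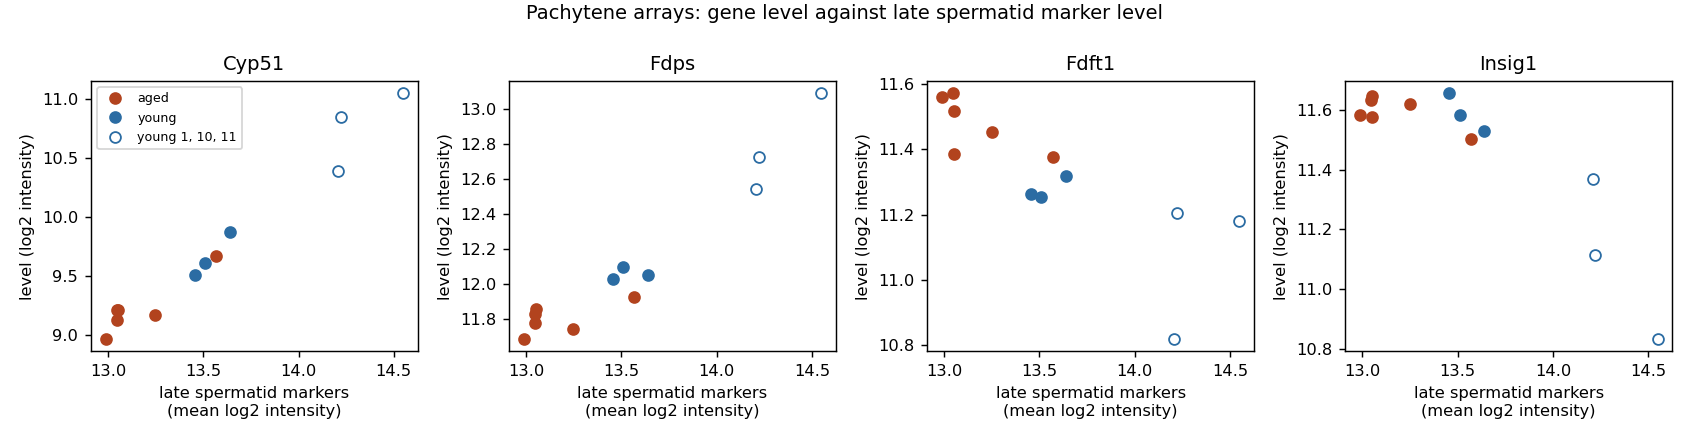
Level of Cyp51, Fdps, Fdft1 and Insig1 in the 12 pachytene arrays (log2 intensity, vertical axes) against the mean log2 level of the 10 late spermatid markers (horizontal axis). Each point is an array, in colour by age, and open points are young arrays 1, 10 and 11. These lie at 14.21 to 14.55 on the horizontal axis with the highest Cyp51 and Fdps and the lowest Fdft1 and Insig1.

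The other enzymes differed with age in both directions in pachytene spermatocytes. Of 12, 7 were higher and 3 lower in aged rats, a median of 0.27 log2, but on the deposited scale and with control centring 1 was higher and 5 lower. The counts were 6 and 2 without young arrays 1, 10 and 11. Mvd lay between 10.13 and 10.32 (median 10.28) in aged arrays, all above the young ones, which reached 9.97 at most (median 9.67), a difference of 0.65 ± 0.15 (limma, adjusted p = 0.00694). Sc5d was at 8.97 to 9.14 in aged and 8.14 to 8.87 in young arrays (0.54 ± 0.12, adjusted p = 0.00525). Mvk (0.48) and Tm7sf2 (0.45) rose too, with all aged arrays above the young ones. Given the count of 1 higher, at most 1 of Mvd, Sc5d, Mvk and Tm7sf2 kept its call on the deposited scale, and likewise with control centring. For the other Sc5d probe sets the ages overlapped. The other Mvk probe sets were split between overlap and all aged arrays above the young ones. Lss (0.33), Hsd17b7 (0.39) and Lbr (0.22) were called higher here and were at -0.11, -0.04 and -0.17 on the deposited scale. The other Hsd17b7 probe set was 0.48 lower in aged rats (-0.48 ± 0.09, adjusted p = 0.00189).

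The 3 that were lower with age in pachytene spermatocytes were Msmo1, Ebp and Acat2. Msmo1 lay between 7.78 and 8.31 in aged arrays, all below the young ones at 8.43 to 9.41 (-0.65 ± 0.15, limma, adjusted p = 0.00635). Ebp lay between 6.57 and 6.97 in aged arrays, again all below the young ones at 7.10 to 7.58 (-0.48 ± 0.10, adjusted p = 0.00354). Acat2 was at -0.22 ± 0.08 (adjusted p = 0.034), a call lost without young array 1, 10 or 11 or aged array 8, 9 or 10, with adjusted p up to 0.0738 and a difference of -0.12 without the 3 young arrays together (adjusted p = 0.258). Hsd17b7 lost its call without young array 10, young array 11 or aged array 8 (adjusted p up to 0.0562). Pmvk (-0.07, adjusted p = 0.552) and Nsdhl (-0.26, adjusted p = 0.0916) did not pass. Ebp and Nsdhl lie on the X chromosome, and the remaining measured enzymes on autosomes.

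Regulators moved both ways. Of 11 measured, 3 were higher (Insig2, Erlin2 and Srebf1) and 2 lower (Scap and Mbtps2) in aged pachytene spermatocytes. The split was 5 and 2 on median-centred values and 2 and 5 on the deposited scale and with control centring, and 4 and 2 without young arrays 1, 10 and 11. Insig2 lay between 9.81 and 10.02 in aged and between 8.71 and 9.56 in young arrays (0.72 ± 0.14, limma, adjusted p = 0.00255), and its other probe set was also higher (0.29, adjusted p = 0.0381). Srebf1 was higher by 0.27 ± 0.05 (adjusted p = 0.00272) but at -0.11 on the deposited scale. Srebf2 did not pass (0.07, adjusted p = 0.313) and was lower on the deposited scale (-0.37, adjusted p = 0.000995). Mbtps2 was at -0.70 ± 0.14 (adjusted p = 0.00252). Scap was at -0.50 ± 0.09 by its brighter probe set (adjusted p = 0.00153) and 0.23 by the other (adjusted p = 0.0207), so its direction is unsettled.

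Among the genes of cholesterol uptake, transport, storage and export, Abca1 and Npc2 had the smallest p with age in pachytene spermatocytes. Abca1, which exports cholesterol, was at 9.66 or more (median 9.84) in aged pachytene arrays, all above the young ones at 8.24 to 9.23 (median 8.82). It was 1.06 ± 0.18 higher in aged rats (limma, adjusted p = 0.00119), and a second probe set gave 0.96, while 2 further probe sets did not pass (-0.44 and -0.26). Npc2, which carries cholesterol out of lysosomes, lay between 10.81 and 11.07 in aged and between 11.43 and 12.23 in young arrays (-0.77 ± 0.13, adjusted p = 0.00114). Stard4 was lower by -0.30 and Nr1h3, a sterol receptor, higher by 0.50, which was 0.09 on the deposited scale. Over this list 5 of 12 genes were higher and 4 lower (1 higher and 6 lower on the deposited scale, 3 and 3 without young arrays 1, 10 and 11). Of 9 genes of the isoprenoid branches 6 were higher and 1 lower (2 and 2 on the deposited scale, 5 and 0 without those arrays), among them Dhdds (0.45), Fntb (0.53), Ggps1 (0.31) and Nus1 (0.56). Ggps1 was at -0.12 on the deposited scale, and the 2 other Nus1 probe sets were lower (-0.72 and -0.47).

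Age was then compared in round spermatids. Of the 7 members 1 was higher in aged rats (Insig1), 2 were lower (Cyp51 and Fdps) and 4 did not pass the test. The median difference was -0.04 log2, against 0.00 over all genes, of which 24.9% passed (12.5% higher, 12.4% lower). The count of 3 of 7 is to be read against that share. On the deposited scale and with control centring 2 were higher and 0 lower, and on median-centred values 1 was higher and 1 lower. Of all probe sets 55.3% passed on the deposited scale (median 0.14) and 28.1% with control centring (median 0.18). With young arrays 1, 10 and 11 left out, Insig1 was the 1 member of 7 that passed, and 664 of all 14217 genes were higher and 519 lower. Only young arrays 2, 3 and 13 then remained, and of those left out only array 10 stood apart in this fraction. The part of the smaller group in the lost calls was not tested.

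Insig1 lay between 9.42 and 9.78 (median 9.50) in aged round spermatids, against 8.94 to 9.33 (median 9.13) in young ones, on the scale normalized within the fraction. Every aged array was above every young array. Insig1 was 1.34-fold higher in aged rats (0.42 ± 0.08, SE, limma, adjusted p = 0.0039). The call held in the 3 other scalings, where the difference was 0.51 to 0.69, without each array in turn (0.38 to 0.46) and without young arrays 1, 10 and 11 (0.36, adjusted p = 0.0411).

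Cyp51 was at 11.45 or less (median 11.32) in aged round spermatids and between 11.49 and 11.76 (median 11.55) in young ones, with no overlap. It was 1.24-fold lower in aged rats (-0.31 ± 0.07, limma, adjusted p = 0.0112), and its second probe set was also lower with no overlap (-0.20 ± 0.05, adjusted p = 0.0111). The brighter probe set was -0.24, -0.10 and -0.06 on median-centred values, with the deposited values and with control centring and did not pass there, and the second was above 0 in the last 2 of these (0.03 and 0.07). Without young arrays 1, 10 and 11 it was -0.25 (adjusted p = 0.0926).

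Fdps lay between 12.99 and 13.37 (median 13.17) in aged round spermatids and between 13.17 and 13.69 (median 13.49) in young ones, a difference of -0.31 ± 0.08 (adjusted p = 0.0222) with overlap. The call was lost without young array 11 (-0.28), aged array 9 (-0.29) or aged array 10 (-0.27), at adjusted p of 0.0568 to 0.0579, and on the deposited scale (-0.25, adjusted p = 0.0507). Fdft1 gave 0.27 ± 0.10 by its brighter probe set (adjusted p = 0.074), where young array 2 at 12.17 was the only young array above 11.70, and it passed without that array (0.36, adjusted p = 0.00379). Its other probe set was higher in every aged array, at 9.65 to 9.92 against 9.35 to 9.61 in young ones (0.29 ± 0.06, adjusted p = 0.00446), a call that missed the threshold without young arrays 1, 10 and 11 (0.24, adjusted p = 0.0542).

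Idi1 (-0.03 ± 0.04, adjusted p = 0.731), Sqle (-0.07 ± 0.05, adjusted p = 0.33) and Dhcr7 (-0.04 ± 0.05, adjusted p = 0.684) did not pass in round spermatids. The other Idi1 probe set was at 0.34 ± 0.12 (adjusted p = 0.0828), with young array 10 at 8.01 well below the other young arrays at 8.50 to 8.97. Markers of other cells also moved in this fraction: 8 of 13 Sertoli and 4 of 7 spermatogonia markers were lower and 4 of 9 pachytene markers higher in aged rats, and 2 of 10 late spermatid markers were lower. Once young arrays 1, 10 and 11 were left out, 7 Sertoli markers and 1 spermatogonia marker were lower, and 0 pachytene and 0 late spermatid markers passed limma's threshold in either direction. The summed Sertoli intensity was 3718 to 5078 in aged and 5460 to 9622 in young round spermatid arrays, and that of the pachytene list 27430 to 31295 in aged and 19079 to 26275 in young arrays. Their part in the age differences was not tested.

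Counts for the other pathway genes in round spermatids are to be read against the same 24.9% of all genes. Those on the deposited scale are to be read against 55.3% of all probe sets. Of the 12 other enzymes 2 were higher (Sc5d at 0.51 ± 0.12, adjusted p = 0.00956, and Mvd at 0.18 ± 0.04, adjusted p = 0.00914, limma) and 1 lower (Msmo1 at -0.13 ± 0.04, adjusted p = 0.0331). On the deposited scale 7 were higher and 0 lower, and without young arrays 1, 10 and 11 none passed limma's threshold (0 higher and 0 lower). Msmo1 kept its call without young array 2 or 3 or aged array 2, lost it without each of the other 9 arrays (adjusted p up to 0.0766) and was at 0.02 on the deposited scale. The other Sc5d probe sets overlapped between the ages. Insig2 lay between 9.53 and 9.90 in aged and between 8.06 and 9.35 in young arrays (0.82 ± 0.17, adjusted p = 0.00648), and its other probe set overlapped between the ages. Erlin2 (0.59 ± 0.09, adjusted p = 0.00212) and Erlin1 (0.49 ± 0.08, adjusted p = 0.00261) were higher as well, so 3 of 11 regulators were higher and 0 lower (5 and 0 on the deposited scale). Srebf1 (-0.11, adjusted p = 0.399), Srebf2 (0.06, adjusted p = 0.336) and Scap (-0.13, adjusted p = 0.189) did not pass. Abca1 was again higher (0.33 ± 0.04, adjusted p = 0.00178), at 8.91 to 9.17 in aged and 8.58 to 8.76 in young arrays. A second Abca1 probe set also had all aged arrays above the young ones, and the remaining ones overlapped. Stard3 (0.22), a lysosomal sterol carrier, was higher, and Stard4 (-0.15) and Scarb1 (-0.11) were lower, giving 2 higher and 2 lower of 12. Other probe sets of Stard4 and Scarb1 overlapped between the ages. Scarb1 lost its call without 9 of 12 single arrays, all but young 2, young 3 and aged 9 (adjusted p up to 0.102), and Stard3 without 5, young 1, 11 and 13 and aged 9 and 10 (adjusted p up to 0.0684). In the isoprenoid branches Fntb (0.21), Pdss2 (0.16), Fnta (0.15) and Zmpste24 (0.18) were the 4 of 9 that were higher, with 1 lower. Fnta and Zmpste24 lost their calls without young array 11, aged array 9 or aged array 10 (adjusted p up to 0.0559 and 0.0609). With those 3 young arrays (1, 10 and 11) left out the uptake, transport, storage and export list gave 1 higher and 0 lower, and the isoprenoid list 0 and 0, where Fntb was at 0.18 (adjusted p = 0.0997) and Stard3 at 0.12 (adjusted p = 0.284). On the deposited scale the 2 lists gave 7 and 0 of 12 and 8 and 0 of 9, and Stard4 and Scarb1 were near 0 (-0.01 and 0.03).

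**Figure D4:**
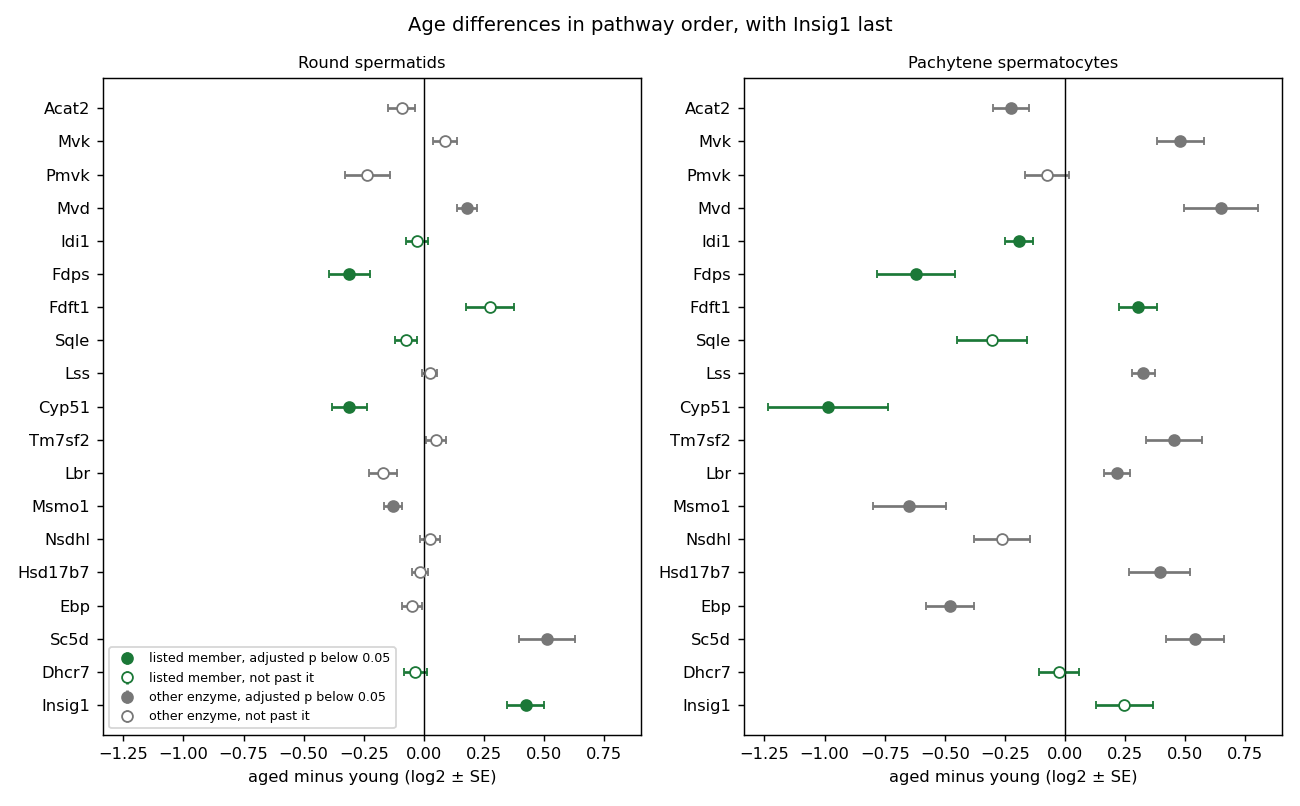
Aged minus young difference (log2 ± SE, brightest probe set) for 19 genes in pathway order, in round spermatids on the left and pachytene spermatocytes on the right. Green marks are the listed members and grey marks the other enzymes, filled where the adjusted p was below 0.05. Cyp51 and Fdps are left of 0 in both fractions, and Insig1 is farthest from 0 among the members in round spermatids at 0.42.

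Whether age acted differently in the fractions was tested as the age difference in round spermatids minus that in pachytene spermatocytes. None of the 7 members passed limma's threshold (0 of 7, against 16.2% of all genes, 7.39% higher and 8.83% lower). At an unadjusted p under 0.05 there were 2, Idi1 (0.19 ± 0.07, adjusted p = 0.0743) and Cyp51 (0.66 ± 0.28, adjusted p = 0.115), both from the fit of limma across all probe sets. The larger fall of Cyp51 in pachytene spermatocytes was therefore not shown to differ from that in round spermatids. Without young arrays 1, 10 and 11, Cyp51 was at 0.17 (adjusted p = 0.576) and the count was again 0. Fdps was at 0.37 ± 0.21 (adjusted p = 0.246) and Insig1 at 0.14 ± 0.16 (adjusted p = 0.619). The count was 5 of 7 on the deposited scale, where the median of all probe sets shifted by 0.26 and 80.9% of them passed, and again 5 of 7 with control centring, where it shifted by 0.19 and 25.5% passed. It was 1 with array weights (Insig1, 0.33, adjusted p = 0.0376), 1 without young array 2 (Cyp51, 0.78, adjusted p = 0.0495) and 1 without young array 3 (Idi1, 0.26, adjusted p = 0.00732).

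Members were also compared from array to array within a fraction, by the Pearson correlation of each with the mean of the other 6, every gene centred on its own mean. In the 12 pachytene arrays Sqle (r = 0.940), Fdps (0.939), Cyp51 (0.937) and Idi1 (0.859) followed the others, and Dhcr7 did so loosely (0.490). Fdft1 (-0.739) and Insig1 (-0.964) ran against them. The mean profile of all 7 ran from -0.17 to 0.37 log2 and was highest in young arrays 1 and 11. The genes outside the list most like that profile were Atp8a2 (0.996), Acsl5 (0.995), Akap14 (0.994), Tinf2 (0.994) and Tes (0.993). All of these values rest on the same 12 arrays, in which young arrays 1, 10 and 11 set most of the spread, and are given as a description.

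In the 12 round spermatid arrays each member was below 0 against the mean of the other 6, at -0.894 for Insig1, -0.632 for Fdft1, -0.496 for Fdps, -0.379 for Cyp51, -0.299 for Idi1, -0.216 for Dhcr7 and -0.110 for Sqle. The mean profile of all 7 ran only from -0.05 to 0.06 log2, and the 5 genes most like it were Nt5c3b (0.858), Rabep2 (0.855), Dhx37 (0.838), Arih2 (0.836) and Zfand6 (0.829). Dhx37 itself ran only from 7.89 to 8.07. These genes are the top of a ranking of many genes over only 12 arrays and are given as a description.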

How the data were processed

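RNA of the 24 samples was hybridized to Affymetrix rat arrays after biotin labelling of 3 µg of total RNA, per the labels. The deposited values are log2 signals per probe set, and the sources used here do not give the authors' summarisation or scaling. Of 31099 probe sets 57 controls were left out and 31042 tested; 20826 had exactly 1 symbol in the platform annotation (14217 genes), 436 had several and 9774 had none. A gene stands by its brightest probe set over the 24 arrays.

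Differences were tested with limma 3.58.1 in R 4.3.3 (lmFit and eBayes, two-sided, Benjamini-Hochberg adjustment over all probe sets, threshold 0.05). The age fits used the 12 arrays of a fraction after quantile normalization. The fraction and interaction fits used 4 group means over 24 arrays, after 94.3 was added to the linear pachytene values and joint quantile normalization. Low array number limits precision, and levels were not compared between probe sets. Motifs and tables were computed with Python 3.11.15, numpy 2.4.6 and pandas 2.3.3, and figures were drawn with matplotlib 3.10.9. The fits were also run on simulated data. For the fraction and interaction fits the simulated fractions had alike low signals and no added constant, so that step was not examined.

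Members, gene lists and tests were chosen with earlier results of these data known. All members and all other enzymes are named. From each other list, up to 4 genes with the smallest p among those past the threshold in a comparison are named, plus Srebf1, Srebf2, Scap and Insig2. Alternatives were other scalings, array weights, a filter on the 40% dimmest probe sets, trended variances, the mean over probe sets, other constants, each array number left out, young arrays 1, 10 and 11 left out, either age alone, and replicate blocks.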

Additional observations from a re-analysis of the deposited data

Results flagged for a closer look

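In 3 of the 40 sets of 6 values examined for the members, the sample at one end stood farther from its nearest neighbour than the critical share of 0.625 of the group's range, and chance alone gives this in about 5% of sets. For Fdft1 the lowest young pachytene array, number 10, was at 10.82 on the log2 scale, with a gap of 0.724 of the range. For Fdft1 the highest young round spermatid array, number 2, was at 12.17, with a gap of 0.807 of the range. For Cyp51 the highest aged pachytene array, number 2, was at 9.67, with a gap of 0.646 of the range. That array also had the highest mean late spermatid marker level among the aged pachytene arrays, 13.57.

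The age difference in round spermatids minus that in pachytene spermatocytes passed limma's threshold for 9 named genes outside the member list. It was below 0 for Lss (-0.15, adjusted p = 0.0206), Hsd17b7 (-0.26, adjusted p = 0.0492), Lbr (-0.33, adjusted p = 0.00476), Srebf1 (-0.31, adjusted p = 0.0306), Abca1 (-0.53, adjusted p = 0.02) and Nus1 (-0.69, adjusted p = 0.00332). It was above 0 for Mbtps2 (0.33, adjusted p = 0.0221), Npc2 (0.71, adjusted p = 0.015) and Zmpste24 (0.43, adjusted p = 0.00512). Lss, Hsd17b7, Lbr and Srebf1 turned above 0 on the deposited scale, and without young arrays 1, 10 and 11 Lss, Hsd17b7, Lbr, Srebf1 and Abca1 no longer passed. Among single arrays left out, the call was lost for Hsd17b7 without 9 of 12 (all but young 2, 3 and 13, adjusted p up to 0.109), for Srebf1 without 6 (young 1 and 11 and aged 3, 5, 8 and 10, up to 0.0913), for Mbtps2 without 5 (young 10 and aged 3, 5, 8 and 9, up to 0.0616), for Lss without 2 (young 1 and aged 10, up to 0.0528) and for Abca1 without 2 (aged 5 and 9, up to 0.0553).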

How the results depend on the processing

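The counts of members called between fractions were the same, 7, under all 12 single array numbers left out. Leaving out 1 number gave 4 to 5 called members for age in pachytene spermatocytes, 2 to 4 for age in round spermatids and 0 to 1 for the difference of age effects. Without young arrays 1, 10 and 11 together 1 member was called for age in round spermatids. The difference of age effects called 5 members on the deposited scale, 5 with centring on hybridization controls and 1 with array weights. A constant of 90.3 from 45 control probe sets, an alternative chosen after seeing the data, left the counts between fractions and for the difference at 7 and 0. Over all members and named genes, 1804 called values kept their call and direction, 209 kept only the direction and 43 turned. The median of all probe sets shifted with the scaling: for age in pachytene spermatocytes it was 0.05 after quantile normalization, 0.13 after median centring, -0.24 on the deposited scale and -0.12 with control centring, and for age in round spermatids 0.00, 0.01, 0.14 and 0.18.

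Directions turned as follows (log2 differences, the cause was not tested). After median centring, Idi1 was at 0.083 for age in pachytene spermatocytes, and between fractions Mvk was at -0.21, Tm7sf2 at -0.24, Lbr at -0.13, Srebf1 at -0.31 and Insig2 at -0.33. On the deposited scale, age in pachytene spermatocytes gave Lss -0.11, Hsd17b7 -0.044, Lbr -0.17, Srebf1 -0.11, Srebf2 -0.37 and Ggps1 -0.12, and age in round spermatids gave the second Cyp51 probe set 0.028, Msmo1 0.021, Hsd17b7 0.12 and Scarb1 0.030. On that scale the fractions gave Mvk -0.29, Lss -0.049, Tm7sf2 -0.33, Lbr -0.22, Srebf1 -0.40, Insig2 -0.41 and Dhdds -0.019, and the difference of age effects gave the second Cyp51 probe set 0.49, Dhcr7 0.46, Lss 0.24, Hsd17b7 0.16, Lbr 0.17 and Srebf1 0.19. With control centring, age in pachytene spermatocytes gave Lbr -0.053, Srebf2 -0.25 and Ggps1 -0.0045, and age in round spermatids gave the second Cyp51 probe set 0.067, Msmo1 0.060, Scarb1 0.070 and Stard4 0.025. With it the fractions gave Mvk -0.34, Lss -0.10, Tm7sf2 -0.38, Lbr -0.27, Srebf1 -0.45, Insig2 -0.46 and Dhdds -0.070, and the difference of age effects gave the second Cyp51 probe set 0.42, Dhcr7 0.39, Lss 0.17, Hsd17b7 0.087, Lbr 0.10 and Srebf1 0.12. Averaged over probe sets, age in pachytene spermatocytes gave Idi1 0.0225, Hsd17b7 -0.042 and Nus1 -0.21, and the fractions gave Lss -0.15, Nsdhl -0.089, Srebf2 0.048 and Insig2 -0.66. In aged rats alone Msmo1 was at 0.12 between fractions.

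Same-numbered samples of the 2 fractions correlated at -0.07 to 0.361 over 12 pairs, 8 of them above 0.1, and 6 of 12 samples correlated best with their own number, a hint of pairing from the data that the labels do not state. With the number as a replicate block across fractions the counts stayed at 7 and 0. A replicate block on the numbers 2, 3 and 10, which young and aged samples share, left 6 arrays a fit. It called 0 members for age in pachytene spermatocytes and 0 in round spermatids. Of all 31042 probe sets 1.18% and 0% passed in these fits, so the member counts say little. The labels do not say that a shared number links a young and an aged sample.

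Counts over all probe sets that moved by over 1.5 times were, for age in pachytene spermatocytes (11631 of 31042), 19153 on the deposited scale, 7656 without young arrays 1, 10 and 11 and 367 with the block. Averaged over probe sets the count was 6641, from fewer tested (46.7% of 14217 genes). For age in round spermatids (5316) they were 17172 on the deposited scale, 8716 with control centring, 1716 without those arrays and 0 with the block. For the fractions (26421) they were 16875 without dim probe sets and 12526 averaged, from fewer sets tested. For the difference (4051) they were 11102 with median centring, 25106 deposited, 7923 with control centring and 2493 averaged (17.5% of the genes). They were 2437 and 2301 without aged number 5 or 8 and 2617 without the 3 young numbers.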
